A study of Mus musculus with 8 samples.

Results

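The genes described here are the splicing factors and heterogeneous nuclear ribonucleoproteins (hnRNPs) of mouse skin tumour cells, taken as every gene whose symbol in the platform annotation starts with Srsf, Hnrnp, Snrp, Sf3a or Sf3b. There were 47 such genes among 17097 genes with a probe set of their own: 17 Hnrnp, 12 Snrp, 9 Srsf, 6 Sf3b and 3 Sf3a genes. The study compared cancer stem cells of well differentiated squamous cell carcinoma (WD-SCC) with those of the poorly differentiated tumours that the same grafts became on passage (PD-SCC, written PD/S-SCC in the titles). The tumours arose in K14-HPV16 mice, either spontaneously or after DMBA-TPA treatment. K14-HPV16 mice carry papillomavirus genes under a keratinocyte promoter, and DMBA-TPA is a carcinogen followed by a tumour promoter. The labels do not tie either origin to an array. All groups share the strain FVB/C57/Bl6, growth in the skin of nude mice, depletion of blood and endothelial cells, and sorting for α6-integrin and CD34. Each stage had 4 single-colour Affymetrix arrays from 3 tumour lineages: 2 arrays of OT7, 1 of OT14 and 1 of OT15. A lineage is 1 primary tumour passed from mouse to mouse, so 3 tumours underlie the comparison. The titles call the arrays biological replicates without saying whether the OT7 pair came from separate mice, so the spread between them may be technical.

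Splicing is carried out by the spliceosome, which is built from small nuclear ribonucleoproteins (snRNPs) that each hold a small nuclear RNA. Sm proteins form a ring on that RNA, U1 snRNP recognises the 5′ splice site, and the SF3A and SF3B complexes hold U2 snRNP at the branch point. SR proteins (Srsf genes) bind exons and mostly favour their inclusion, while hnRNPs coat nascent RNA and often oppose it. Many of these genes control their own level through exons that send their mRNA to decay, and the 3′ probes of an array may not separate such transcripts from coding ones.

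By the fit, 42 of the 47 splicing factor and hnRNP genes read higher in PD-SCC than in WD-SCC, and 16 of them passed the test. Of the 47 genes, 16 rose, 1 fell and 30 did not pass the test (limma with lineage as a block, Benjamini-Hochberg adjusted p under 0.05 over all genes). Over all 17097 genes 7.78% rose, 4.81% fell and 12.6% changed in either direction. Among the 6561 genes above the bacterial control probe sets on all 8 arrays, 14.2% rose and 7.67% fell, and 41 of the 47 genes belong to that brighter set. The 16 that rose were Hnrnpa0, Srsf3, Sf3a3, Snrpa1, Hnrnph1, Hnrnpd, Snrpe, Snrpb, Snrpd2, Hnrnpa2b1, Srsf10, Hnrnpdl, Srsf4, Hnrnpa1, Hnrnpr and Hnrnpul2, and the 1 that fell was Snrpn. The fitted PD-SCC minus WD-SCC difference was above 0 for 42 of the 47 as deposited, for 39 after cyclic loess normalisation and for 41 after scaling each array to its 75th percentile. Its median over the 47 was 0.78 log2 units, beside -0.06 over all genes and 0.17 over the brighter set. Over the 4 arrays of each stage, the median of the 47 levels on an array ran from 7.01 to 7.58 in WD-SCC and from 8.0 to 8.24 in PD-SCC, so the stages did not overlap on this measure.

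**Figure D1:**
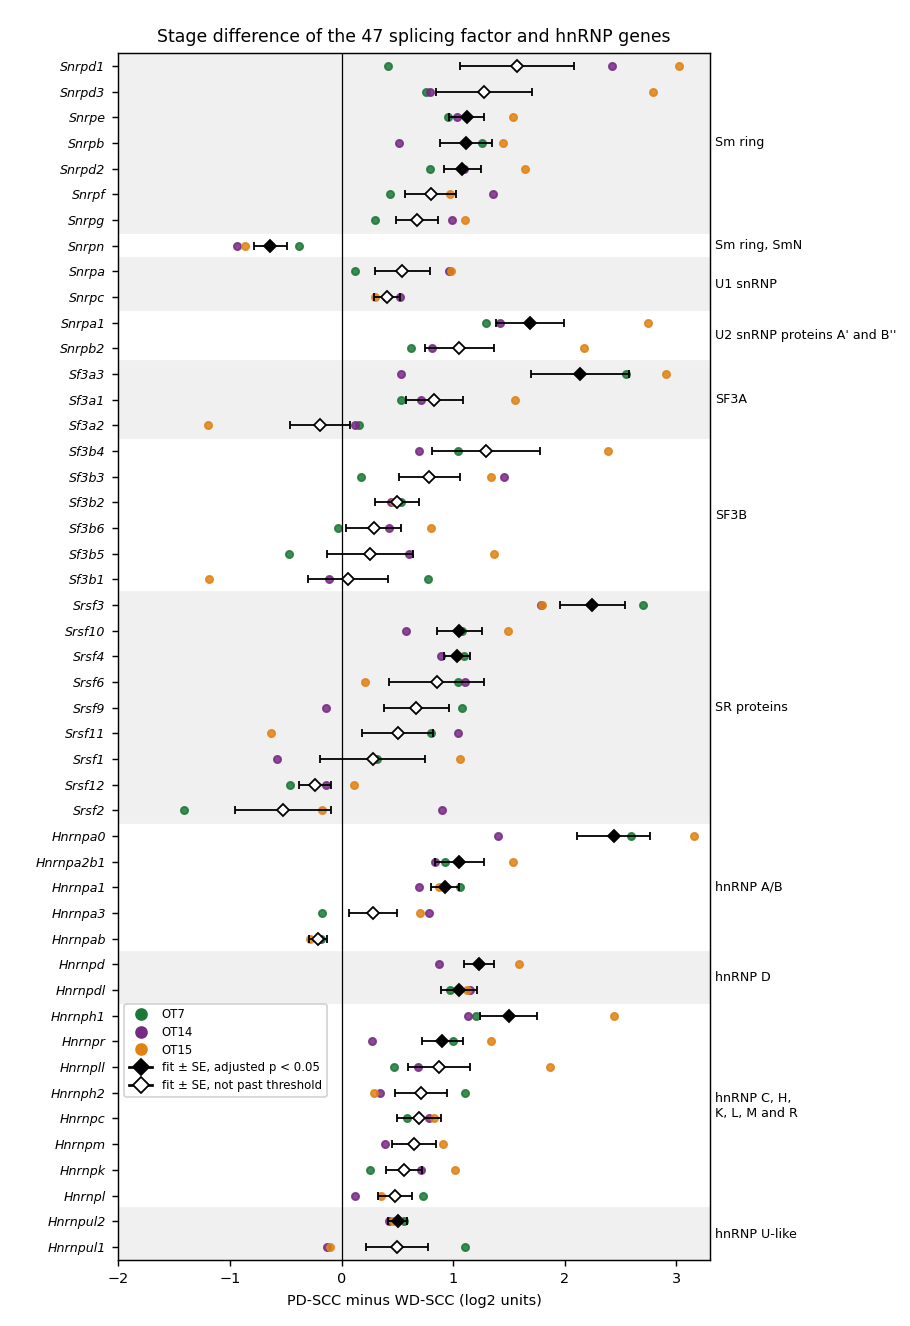
The horizontal axis is the PD-SCC minus WD-SCC difference in log2 units and each row is 1 of the 47 genes, grouped by role. Diamonds with bars are the limma estimate ± SE over 8 arrays, black where the adjusted p was under 0.05, and coloured points are the differences within OT7, OT14 and OT15. Most diamonds lie right of 0, the 16 black ones there run from 0.50 to 2.44, and Snrpn at -0.64 is the 1 black diamond on the left.

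The number of genes past the threshold depended on the scaling and on single arrays, while the sign of the median did not change under any alternative run. After cyclic loess 6 of the 47 rose (Hnrnpa0, Srsf3, Hnrnpd, Snrpe, Snrpd2 and Srsf4) and 2 fell (Snrpn and Hnrnpab), the median became 0.43, and that of the brighter set became -0.08. Over all genes the split was then 799 higher (4.67%, beside 6.72% of the brighter set) and 930 lower. It was 1150 higher and 1205 lower after scaling to the 75th percentile, against 1331 and 823 as deposited. Without the unnumbered OT7 WD-SCC array 11 rose. Without the other OT7 WD-SCC array, without the first OT7 PD-SCC array, or without either OT14 array, 10 rose. Without the second OT7 PD-SCC array or without either OT15 array, 9 rose. Hnrnpa0, Hnrnpa1, Hnrnpd, Snrpe, Srsf3 and Srsf4 passed the threshold whichever 1 of the 8 arrays was left out, and the other 10 that rose passed in 1 to 6 of those 8 fits. Both fits without an OT14 array give the same result, and so do both without an OT15 array, so these counts hold repeats. Without the lineage OT7, 0 of the 47 rose. With both OT7 arrays of each stage averaged first, only Hnrnpdl of the 47 still passed (adjusted p = 0.0476; 0.0108 to 0.0806 over its alternatives), and 202 of all genes rose. That fit has 2 residual degrees of freedom in place of 4.

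The promoters of those 6 genes and of Snrpn are shown because they are the genes whose calls held without any single array and the 1 gene that fell. Each run is the 150 bases before the most upstream RefSeq start (GRCm38.p6), 5′ to 3′ on the gene's strand, and capitals mark the CCAAT box, the E-box CACGTG and the ETS core CCGGAAG on either strand (the first reads ATTGG on the opposite strand).
Hnrnpa0, chr13:58128557-58128706, minus strand: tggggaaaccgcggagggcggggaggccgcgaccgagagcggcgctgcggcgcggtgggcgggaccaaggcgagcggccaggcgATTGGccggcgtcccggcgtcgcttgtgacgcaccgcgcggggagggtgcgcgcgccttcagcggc
Hnrnpa1, chr15:103240247-103240396, plus strand: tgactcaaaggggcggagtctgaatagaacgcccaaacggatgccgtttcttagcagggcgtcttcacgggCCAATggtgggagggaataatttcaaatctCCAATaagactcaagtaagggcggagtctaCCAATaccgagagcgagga
Hnrnpd, chr5:99978939-99979088, minus strand: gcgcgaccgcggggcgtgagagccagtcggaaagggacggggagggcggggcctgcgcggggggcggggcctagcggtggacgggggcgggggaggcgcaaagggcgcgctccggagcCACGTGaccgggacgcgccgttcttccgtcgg
Snrpe, chr1:133610281-133610430, minus strand: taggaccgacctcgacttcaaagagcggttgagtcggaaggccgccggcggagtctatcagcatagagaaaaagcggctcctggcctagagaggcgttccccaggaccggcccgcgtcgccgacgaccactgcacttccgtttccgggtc
Srsf3, chr17:29032510-29032659, plus strand: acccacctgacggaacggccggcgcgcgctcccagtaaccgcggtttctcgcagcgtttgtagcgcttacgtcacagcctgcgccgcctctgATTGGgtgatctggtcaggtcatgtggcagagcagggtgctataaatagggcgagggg
Srsf4, chr4:131873487-131873636, plus strand: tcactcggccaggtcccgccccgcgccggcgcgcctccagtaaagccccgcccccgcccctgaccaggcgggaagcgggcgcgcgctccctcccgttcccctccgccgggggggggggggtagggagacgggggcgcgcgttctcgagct
Snrpn, chr7:60450178-60450327, minus strand: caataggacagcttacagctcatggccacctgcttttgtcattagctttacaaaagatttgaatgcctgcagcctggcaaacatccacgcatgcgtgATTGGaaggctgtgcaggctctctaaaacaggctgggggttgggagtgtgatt
Hnrnpa1 holds 3 copies of CCAAT within these bases, Hnrnpa0, Srsf3 and Snrpn hold 1 each, Hnrnpd holds the palindrome CACGTG, and neither Snrpe nor Srsf4 shows any of the strings in this window. Over the 250 bases before a start, CCGGAAG (the core bound by ETS family factors) was sought on either strand. It was found for 12 of the 41 genes of the 47 that had a promoter (29.3%), beside 11.7% of 13605 tested genes. A gene counted when any of its starts had a match. Counted by single promoters, an unlike unit, the share was 6.91% of all 32851. Hnrnpd and Srsf4 are among those 12. The match of Hnrnpd, which has 1 start, lies farther from it than the bases printed. Srsf4 has 3 starts, and which of them holds its match is not shown. CCAAT was found in 51.2% of the 41 and 39.6% of tested genes, the GC box GGGCGG in 68.3% and 53.5%, the TATA box TATAAA in 14.6% and 10.7%, and the E-box CACGTG in 7.32% and 8.75%. None of the 5 strings contains another, and a match describes letters only.

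Among the SR proteins, 3 of 9 rose, and their median difference was 0.67. Srsf3 encodes the smallest SR protein, which also takes part in mRNA export and 3′ end choice. Its log2 levels in WD-SCC were 5.95 and 5.10 on the OT7 arrays, 6.41 on OT14 and 5.77 on OT15, and in PD-SCC they were 7.95 and 8.51, 8.20 and 7.56 in the same order. The lowest PD-SCC array thus lay above the highest WD-SCC array, and the fitted rise was 2.25 ± 0.29 log2 units (SE; 4.75-fold; adjusted p = 0.0105). Srsf4, a long SR protein with an extended arginine-serine tail, read 7.78 and 7.81 on OT7, 7.48 on OT14 and 7.04 on OT15 in WD-SCC, then 9.08 and 8.71, 8.38 and 8.08 in PD-SCC. Every lineage showed nearly the same step, 1.10 in OT7, 0.89 in OT14 and 1.04 in OT15, for a fitted rise of 1.03 ± 0.12 (adjusted p = 0.00718). Srsf10, whose product represses splicing when dephosphorylated, rose by 1.06 ± 0.20 (adjusted p = 0.0277), with PD-SCC arrays at 8.68 to 9.19 and WD-SCC arrays at 7.28 to 8.28.

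The other 6 SR genes did not pass, with adjusted p from 0.179 to 0.708. Srsf1, the founding SR protein and a known oncoprotein, differed by 0.28 ± 0.47, and its OT7 WD-SCC pair alone read 4.43 and 6.24, a gap wider than the stage difference. Srsf2, which encodes SC35, was lower in PD-SCC by the fit at -0.52 ± 0.43 (adjusted p = 0.431). Its WD-SCC levels were tight, at 7.98 and 7.40 on OT7, 7.78 on OT14 and 7.61 on OT15. Its PD-SCC levels were spread over 6.35 and 6.20 on OT7, 8.68 on OT14 and 7.43 on OT15, so that OT7 lay below its WD-SCC level and OT14 above. Srsf6, Srsf9 and Srsf11 had differences of 0.85, 0.67 and 0.50, each with overlapping stages. Other probe sets of Srsf6 ran from -0.26 to 1.90, and 1 of them rose (limma, adjusted p = 0.0154 over all probe sets). With its probe sets averaged Srsf6 did not pass at 0.88 (adjusted p = 0.0748). Srsf12 was not above the bacterial controls on any of the 8 arrays.

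Of the hnRNP genes, 8 of 17 rose and none fell as deposited (4 rose without either OT14 array, either OT15 array, the second OT7 WD-SCC array or the second OT7 PD-SCC array), with 16 of 17 differences above 0 as deposited (after cyclic loess Hnrnpa3 was below 0 as well as Hnrnpab, which then fell). In the A/B family, whose products bind UAG-like motifs and often silence exons, 3 of 5 rose. Hnrnpa0 showed the largest difference of the 47 genes. Its WD-SCC levels were 4.62 and 4.12 on OT7, 5.80 on OT14 and 4.44 on OT15, with the second OT7 value not above the bacterial controls. Its PD-SCC levels were 6.64 and 7.29 on OT7, 7.20 on OT14 and 7.60 on OT15. The stages did not overlap, and the fitted rise was 2.44 ± 0.33 (5.42-fold; adjusted p = 0.0111).

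Hnrnpa1, the best-studied exon silencer of the family, read 9.67 and 9.41, 9.59 and 9.53 in WD-SCC (OT7 pair, OT14, OT15) and 10.72 and 10.50, 10.29 and 10.40 in PD-SCC. Arrays within a stage lay close together, and the rise was 0.93 ± 0.12 (1.90-fold; adjusted p = 0.0110). Hnrnpa2b1, which also sorts RNA into exosomes, rose by 1.06 ± 0.22 (adjusted p = 0.0362), but its stages overlapped, since 1 OT7 WD-SCC array at 8.92 lay just above the PD-SCC arrays of OT14 and OT15 at 8.88 and 8.90. That call passed in 1 of the 8 fits without 1 array, and it was lost without the lineage block (adjusted p = 0.0990) and with lineage as a random block (0.0937), in a range of 0.0235 to 0.136 over its alternatives. Hnrnpa3 differed by 0.28 ± 0.21, and the difference was below 0 in OT7 (-0.18) and above 0 in OT14 (0.78) and OT15 (0.70). Hnrnpab had probe sets of opposite sign, and those not used here lay higher in PD-SCC by 0.49 to 1.87. The brightest, used here, read lower on every PD-SCC array, at 11.97 to 12.18 against 12.25 to 12.37. The fitted difference of -0.21 ± 0.08 did not pass as deposited (adjusted p = 0.138), passed after cyclic loess at -0.51 (adjusted p = 0.0461), and turned to a rise of 0.73 when the probe sets of the gene were averaged (adjusted p = 0.0199). Its adjusted p over all alternatives ran from 0.0199 to 0.492.

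Both genes of the D family rose. Hnrnpd encodes AUF1, which binds AU-rich elements and speeds the decay of many short-lived mRNAs. It read 7.87 and 8.06 on OT7, 8.01 on OT14 and 6.85 on OT15 in WD-SCC, and 9.18 and 9.21, 8.89 and 8.44 in PD-SCC. The OT15 WD-SCC array stood below the other 3, every lineage stepped up, and the fit gave 1.23 ± 0.14 (2.35-fold; adjusted p = 0.00712). Averaged with its other 2 probe sets, at -0.10 and 0.07 and above the bacterial controls on no array, the rise was 0.40 (adjusted p = 0.0294; 0.00637 to 0.132 over its alternatives). Hnrnpdl, a close relative of Hnrnpd, read 8.88 and 8.57, 9.20 and 8.38 in WD-SCC and 9.97 and 9.41, 10.35 and 9.50 in PD-SCC. Its 3 lineage steps were 0.97, 1.15 and 1.13, and its rise was 1.05 ± 0.16 (adjusted p = 0.0150).

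In the C, H, K, L, M and R group, all 8 differences were above 0 and 2 passed. Hnrnph1, which binds G-runs, rose by 1.50 ± 0.25 (adjusted p = 0.0204), with overlapping stages (5.41 to 7.93 in WD-SCC and 7.85 to 9.06 in PD-SCC). Without the lineage block that call was lost (adjusted p = 0.101), as it was with lineage as a random block (0.0965), in a range of 0.0104 to 0.148 over its alternatives. Hnrnpr rose by 0.90 ± 0.18 (adjusted p = 0.0335), or 0.31 when its probe sets were averaged, which did not pass. The 6 that did not pass lay between adjusted p of 0.0758 and 0.0979. Hnrnpc, which coats nascent transcripts, differed by 0.69 ± 0.20, Hnrnpk, which binds C-rich sequence, by 0.56 ± 0.16, Hnrnpl, which binds CA repeats, by 0.48 ± 0.15, and Hnrnpm, which binds GU-rich sequence, by 0.65 ± 0.20. Hnrnpk and Hnrnpm had no overlap between stages, while Hnrnpc and Hnrnpl did. With probe sets averaged, Hnrnpc and Hnrnpk passed at 0.56 and 0.80 (limma, adjusted p = 0.0294 and 0.00917). Over their alternatives adjusted p reached 0.284 and 0.514. Hnrnpul2, an hnRNP U-like protein tied to DNA repair, rose by 0.50 ± 0.08, the smallest rise that passed (adjusted p = 0.0198). Its call held in 1 of the 8 fits without 1 array and was lost under both other scalings, where the difference was 0.14 after cyclic loess (adjusted p = 0.363, the highest over its alternatives) and 0.35 at the 75th percentile (0.101). Hnrnpul1 differed by 1.11 in OT7 and by -0.13 and -0.10 in OT14 and OT15. Hnrnpu, Hnrnpf, Hnrnph3, Srsf5 and Srsf7 had no probe set of their own and were not analysed here.

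The 7 genes of the common Sm ring (Snrpb, Snrpd1, Snrpd2, Snrpd3, Snrpe, Snrpf and Snrpg) all had differences above 0, from 0.68 to 1.57, and 3 of them rose. Their products assemble as 1 ring, so all 7 are needed for each snRNP of this class. Snrpe read 8.45 and 8.88 on OT7, 8.40 on OT14 and 7.80 on OT15 in WD-SCC, and 9.66 and 9.59, 9.44 and 9.33 in PD-SCC. PD-SCC arrays agreed within a narrow band above all WD-SCC arrays, and the rise was 1.12 ± 0.16 (2.18-fold; adjusted p = 0.0122). Snrpb, whose transcript makes SmB and SmB′, rose by 1.12 ± 0.23 (adjusted p = 0.0353), from 8.72 to 9.66 in WD-SCC to 10.02 to 10.66 in PD-SCC. That call passed in 2 of the 8 fits without 1 array, both of them without an OT14 array. It was lost after cyclic loess (adjusted p = 0.0788; 0.0202 to 0.221 over its alternatives). Snrpd2 read 10.16 and 10.21, 9.07 and 8.69 in WD-SCC and 10.96 and 10.99, 10.16 and 10.34 in PD-SCC. OT7 was higher than the other lineages at both stages, so the stages overlapped while every lineage rose, and the fitted rise was 1.08 ± 0.17 (adjusted p = 0.0158; 0.0538 without either OT14 array, 0.106 without the lineage block, and 0.0134 to 0.106 over its alternatives). The remaining 4 had adjusted p between 0.0695 and 0.109. Of these, Snrpd3 passed with probe sets averaged, at 0.59 (limma, adjusted p = 0.0263, and up to 0.238 over its alternatives). Snrpd1, with the largest difference of the ring, read 7.58 and 7.47 on OT7 but 5.36 on OT14 and 5.01 on OT15 in WD-SCC, and 7.63, 8.24, 7.78 and 8.04 in PD-SCC. Its difference of 1.57 ± 0.51 (adjusted p = 0.101) came from OT14 (2.42) and OT15 (3.03) more than from OT7 (0.41).

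Snrpn was the 1 gene of the 47 that fell. It encodes SmN, which takes the place of SmB in snRNPs of the brain, and it lies in an imprinted locus. It read 5.65 and 5.95 on OT7, 5.96 on OT14 and 6.37 on OT15 in WD-SCC, and 5.39 and 5.46, 5.02 and 5.50 in PD-SCC. All PD-SCC arrays lay below all WD-SCC arrays, and the fall was -0.64 ± 0.15 (0.642-fold; adjusted p = 0.0472). The call was narrow: it was lost in 7 of the 8 fits without 1 array, where adjusted p ran from 0.0318 to 0.129 and the difference from -0.75 to -0.54, and it was kept after cyclic loess at -0.87 (adjusted p = 0.0109, the lowest over its alternatives). Snrpb, which encodes the protein that SmN stands in for, rose on the same arrays as deposited, but that call was lost after cyclic loess.

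**Figure D2:**
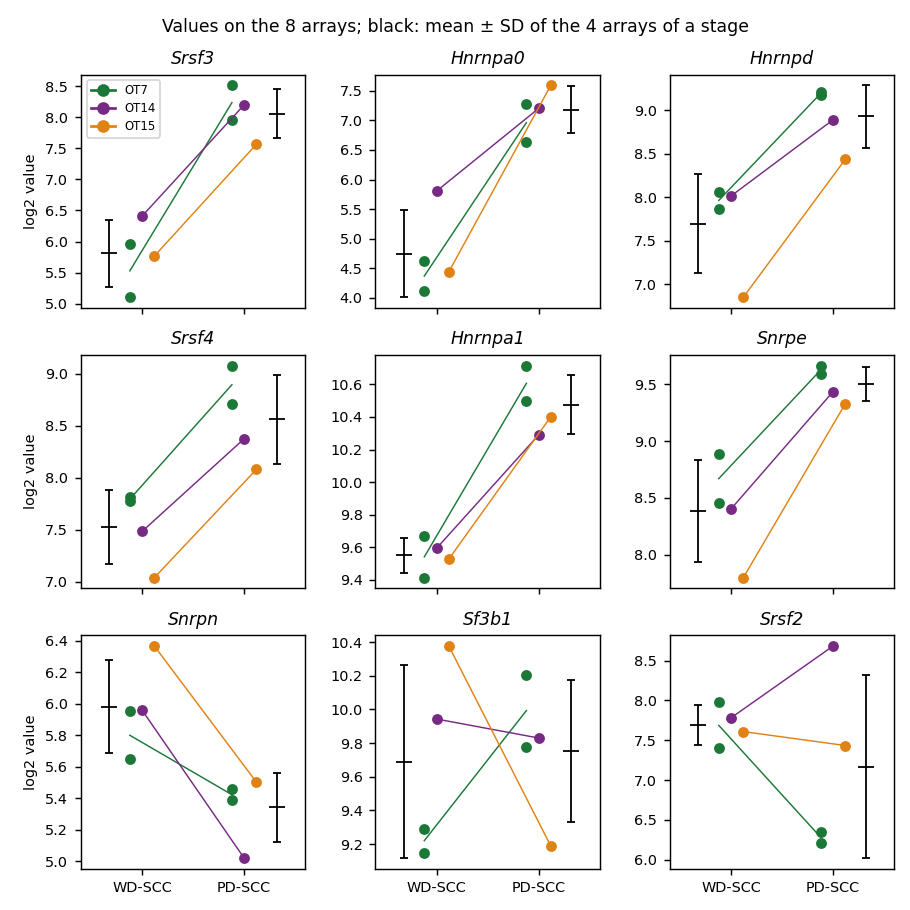
Each panel plots the log2 level of 1 gene on the 8 arrays (vertical axis, each panel on its own scale) by stage (horizontal axis), with colours for the lineages, lines joining the lineage means and black bars for the mean ± SD of the 4 arrays of a stage. The stages are apart for Srsf3, Hnrnpa0, Hnrnpd, Srsf4, Hnrnpa1, Snrpe and, downwards, Snrpn, while the lineages cross for Sf3b1 and Srsf2.

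Among proteins particular to U1 and U2 snRNP, 1 of 4 rose. Snrpa and Snrpc, which encode proteins A and C of U1 snRNP, differed by 0.55 ± 0.25 and 0.41 ± 0.11 and neither passed (adjusted p = 0.192 and 0.0734). Snrpa1, which encodes U2 protein A′, rose by 1.69 ± 0.30 (3.22-fold; adjusted p = 0.0242). Its WD-SCC levels were 8.36 and 7.71 on OT7, 7.47 on OT14 and 6.17 on OT15, and its PD-SCC levels 9.44 and 9.22, 8.88 and 8.91. PD-SCC arrays lay above all WD-SCC arrays, with the lowest WD-SCC level in OT15. Its partner Snrpb2 (U2B′′) differed by 1.06 ± 0.31 (adjusted p = 0.0779), also without overlap. With probe sets averaged Snrpb2 passed at 0.70 (limma, adjusted p = 0.0259, and up to 0.211 over its alternatives).

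In the SF3A complex 1 of 3 rose. Sf3a3, one of the subunits, read 6.07 and 5.18, 6.14 and 4.53 in WD-SCC and 8.23 and 8.12, 6.68 and 7.43 in PD-SCC. OT14 stepped up by 0.54 and the other lineages by 2.55 (OT7) and 2.91 (OT15), for a fitted rise of 2.14 ± 0.44 (adjusted p = 0.0343; 0.0127 to 0.305 over its alternatives). Sf3a1 differed by 0.83 ± 0.26 (adjusted p = 0.0892) and Sf3a2 by -0.19 ± 0.27. None of the 6 SF3B genes passed, with adjusted p from 0.116 to 0.920, although all 6 differences were above 0 as deposited, 5 after scaling to the 75th percentile and 4 after cyclic loess. Sf3b3 and Sf3b4 differed by 0.78 ± 0.27 and 1.30 ± 0.49. Sf3b2 differed by 0.49 ± 0.20 and passed only with probe sets averaged, at 0.95 (limma, adjusted p = 0.0202, and up to 0.688 over its alternatives). Sf3b1, the branch point protein mutated in several human cancers, showed no common direction. It read 9.15 and 9.29 on OT7, 9.94 on OT14 and 10.38 on OT15 in WD-SCC, and 10.21 and 9.78, 9.83 and 9.19 in PD-SCC. OT7 was higher in PD-SCC by 0.77, OT15 lower (-1.19) and OT14 near level (-0.11), and the fit gave 0.06 ± 0.36 (adjusted p = 0.920).

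Lineages shared a direction for most of these genes. The difference was above 0 in OT7, OT14 and OT15 for 34 of the 47, beside 22.2% of all genes. It was below 0 in all 3 for 2 (Hnrnpab, on the probe set used here, and Snrpn), beside 29.0% of all genes. Median differences of the 47 were 0.73 in OT7, 0.71 in OT14 and 1.04 in OT15. PD-SCC arrays lay above all WD-SCC arrays for 19 of the 47 (10.8% of all genes) and below them for 2 (13.3% of all genes). The shares for shared direction and for stages apart were not computed over the brighter set, which holds 41 of the 47. In that set 58% of genes had a fitted difference above 0, beside 42.2% of all genes. Among the 16 genes that rose, the step was largest in OT15 for 11, in OT7 for 4 and in OT14 for 1. The OT15 WD-SCC array was the lowest of the 4 WD-SCC arrays for 25 of the 47 genes. Neither of these 2 counts was made over all genes, so neither can be called particular to the 47. OT14 and OT15 had 1 array per stage and OT7 had 2. The SD over the 4 arrays was larger in WD-SCC than in PD-SCC for 34 of the 47, with medians of 0.44 and 0.32 log2 units, and for 61.7% of the brighter set of all genes. In the test of whether the stage difference varied between lineages (limma, F test, 2 residual degrees of freedom), none of the 47 and 0% of all genes passed at adjusted p under 0.05. At an unadjusted p under 0.05 the counts were 11 of 47 (23.4%) and 11.9% of all genes. The 3 genes with the smallest p were Snrpd1 (limma, adjusted p = 0.247), Sf3b1 (0.278) and Srsf2 (0.283), so no lineage difference was established for any of them.

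Probe sets of 1 gene did not always read alike. The 47 genes had 118 probe sets, 33 genes had more than 1, and for 13 of those the probe sets differed in sign. Tested as probe sets, 33 of the 118 rose and 2 fell, beside 2010 and 1037 of 28898, and no gene had a rise and a fall that both passed. All 3 probe sets of Snrpa1 rose, by 1.61 to 1.69, as did all 3 of Hnrnpa1, by 0.64 to 0.93, and both of Snrpb. Srsf3 had 6 probe sets with differences from 0.25 to 2.47 (1.17 when averaged), of which 3 rose, and the 2 lowest differences came from probe sets above the bacterial controls on no array. For Hnrnpab, the probe set used here fell short of the threshold at -0.21, while the other 4 lay between 0.49 and 1.87 and 2 of them rose. Srsf2 had 1 probe set that rose by 1.00 and 4 below 0, the lowest at -0.60. Snrpn had 2 of 3 probe sets that fell. Which transcripts each probe set reads was not analysed here. A further 8 probe sets, which name a second gene in the annotation as well, are not among the 118 and were left out.

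**Figure D3:**
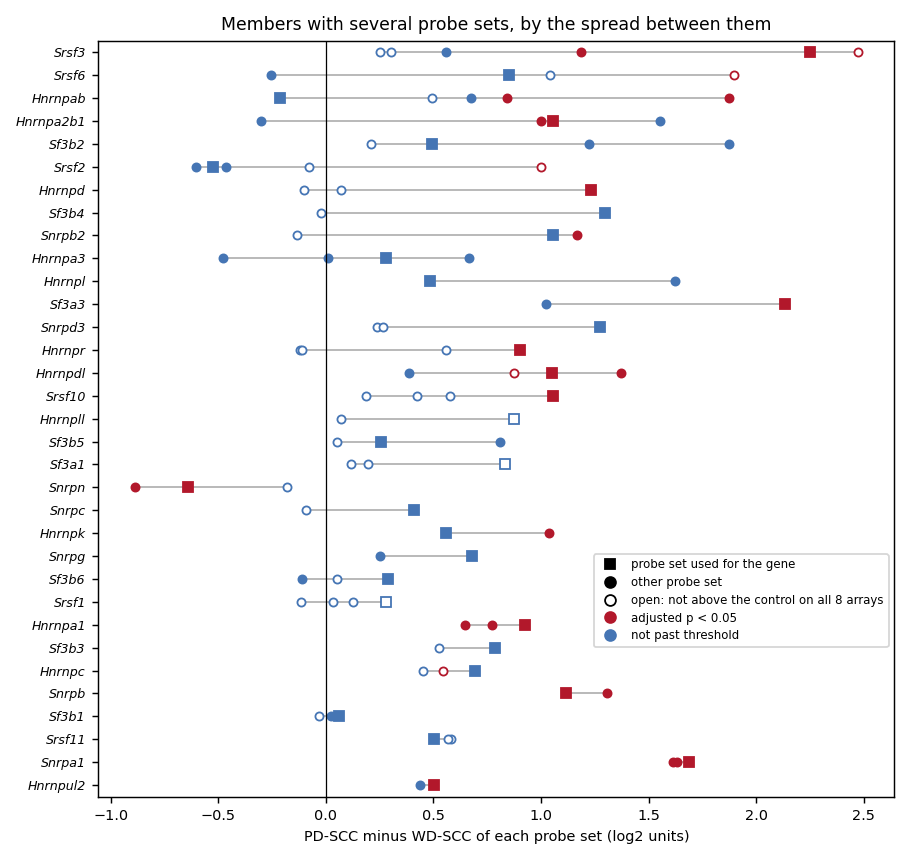
The horizontal axis is the PD-SCC minus WD-SCC difference of each probe set in log2 units, and each row is 1 of the 33 genes with more than 1 probe set, ordered by the spread between them. Squares are the probe sets used for the genes, open symbols are not above the bacterial controls on all 8 arrays, and red marks an adjusted p under 0.05 over 28898 probe sets. Srsf3, Srsf6 and Hnrnpab span the widest ranges, and Snrpa1 and Hnrnpul2 the narrowest among genes with a rise.

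Other parts of the splicing machinery were read from lists chosen by role. A list of 56 further spliceosome genes had 18 that rose, 0 that fell and a median difference of 0.64. The share that rose was 32.1%, beside 7.78% of all genes and 14.2% of the brighter set. After cyclic loess 6 of the 56 rose, beside 4.67% of all genes and 6.72% of the brighter set. Without 1 array 6 to 11 rose. Lsm3, of the ring on U6 RNA, rose by 1.17 ± 0.13 (adjusted p = 0.00706; 0.137 without the lineage block and 0.00622 to 0.138 over its alternatives). Prpf3 and Prpf4, partners in the U4/U6 particle, rose by 2.01 ± 0.25 and 0.82 ± 0.11 (adjusted p = 0.00956 and 0.0121). Of 15 genes of snRNP assembly, 1 rose (median difference 0.19). That share, 6.67%, is near the 7.78% of all genes that rose. The gene was Smn1, the core of the complex that loads Sm rings, which rose by 1.23 ± 0.13 (adjusted p = 0.00629). Wdr77 and Prmt5 of the same list, which take part in Sm protein methylation, had differences of 1.95 ± 0.51 and 1.14 ± 0.50. Neither passed (adjusted p = 0.0636 and 0.182), and both are named here with their values in view.

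Of 11 genes for SR protein kinases and import, 1 rose, the kinase gene Dyrk1a by 0.86 ± 0.15 (adjusted p = 0.0232; 0.132 after cyclic loess, 0.0902 without the lineage block and 0.0177 to 0.139 over its alternatives). That share, 9.09%, is near that of all genes, and without either OT14 array, either OT15 array or either OT7 PD-SCC array 0 of the 11 rose. Srpk1, a mostly cytoplasmic SR kinase, differed by 0.83 ± 0.28 (adjusted p = 0.109) and Clk1, a nuclear one, by 0.16 ± 0.35 (adjusted p = 0.768). Among 38 other splicing regulators, 8 rose (21.1%, beside 14.2% of the brighter set), 4 fell and the median difference was 0.40. Without 1 array 3 to 7 rose: 3 without the first OT7 PD-SCC array, 4 without either OT14 or either OT15 array and 5 without the second OT7 PD-SCC array. Those that fell include both epithelial splicing regulators. Esrp2 fell by -2.04 ± 0.18 (adjusted p = 0.00464), and Esrp1 was above the bacterial controls on all 4 WD-SCC arrays and on no PD-SCC array, at least 2.44-fold lower (adjusted p = 0.00630). Rbm47, another regulator of epithelial cells, fell by -2.79 ± 0.38 (adjusted p = 0.0117). Khdrbs1 (Sam68) and Qk (Quaking) rose by 1.41 ± 0.14 and 0.98 ± 0.10 (adjusted p = 0.00533 and 0.00536). With probe sets averaged, Khdrbs1 rose by 0.83 (adjusted p = 0.0144; 0.00448 to 0.112 over its alternatives), it differed by 0.41 and did not pass where probe sets with an _x_at or _s_at suffix were replaced (adjusted p = 0.112), and Qk did not pass at 0.23 (adjusted p = 0.118, the highest over its alternatives). Ptbp1, Rbfox2 and Mbnl1 differed by 1.36 ± 0.40, 0.86 ± 0.28 and 1.34 ± 0.44 and did not pass as deposited (adjusted p = 0.0791, 0.106 and 0.106).

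**Figure D4:**
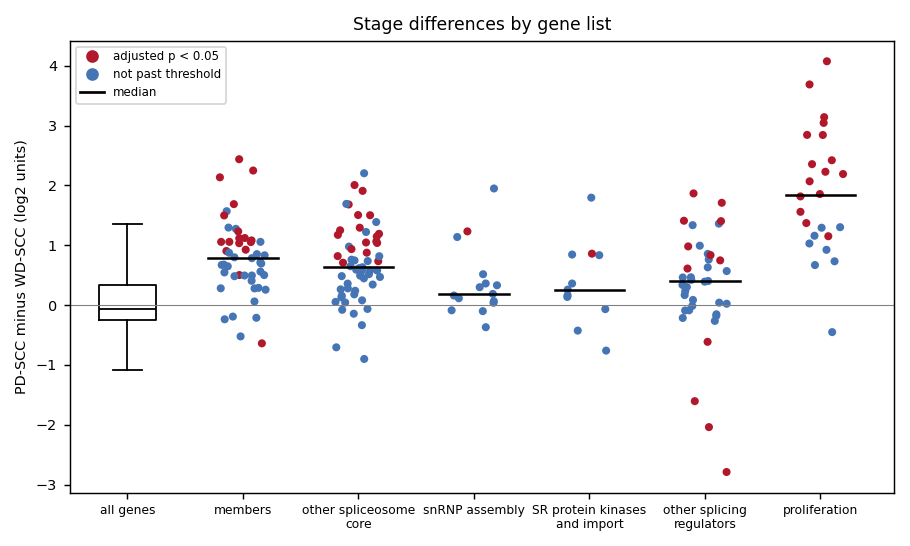
The vertical axis is the PD-SCC minus WD-SCC difference in log2 units, with 1 point per gene for each list, red where the adjusted p was under 0.05, and a bar at the median. The box for all genes spans the quartiles with whiskers at the 5th and 95th percentiles; the medians run from 0.19 for snRNP assembly through 0.78 for the 47 splicing factor and hnRNP genes to 1.84 for proliferation.

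Several other measurements moved with stage, and their part in the results above was not tested. Proliferation genes rose in 16 of 24 cases (66.7%, beside 14.2% of the brighter set) with a median of 1.84. Among them were Cdca8 (3.69), Birc5 (2.19) and Tpx2 (3.14). Without 1 array 10 to 14 of the 24 rose, the fewest without the second OT7 PD-SCC array. Keratinocyte markers fell in 5 of 8 cases, beside 4.81% of all genes and 7.67% of the brighter set. Their median was -3.30, led by Krt5 (-7.10), Epcam (-4.62) and Cdh1 (at least 4.31-fold lower). Of the 8, 1 had a difference above 0, at 1.67, and it did not pass. The sort markers Cd34 and Itga6 did not pass (adjusted p = 0.241 and 0.796). Of 7 haematopoietic markers none rose and Cd68 fell (-2.79), with the defining markers Ptprc and Itgam above the bacterial controls on no array. Of 7 endothelial markers all had differences below 0, from -2.66 to -0.18 with a median of -1.23, and only Cldn5 passed (-1.19). Of 8 fibroblast markers none passed. In bulk RNA, fewer cells of a type and less RNA per cell cannot be told apart. The non-specific control probe set richest in G and C read 8.0 to 8.53 on WD-SCC arrays and 6.66 to 7.08 on PD-SCC arrays. The highest bacterial control read 3.82 to 4.37 and 3.61 to 3.81. The 3′ minus 5′ difference of Gapdh overlapped between stages (-0.53 to -0.04 and -0.41 to -0.24).

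**Figure D5:**
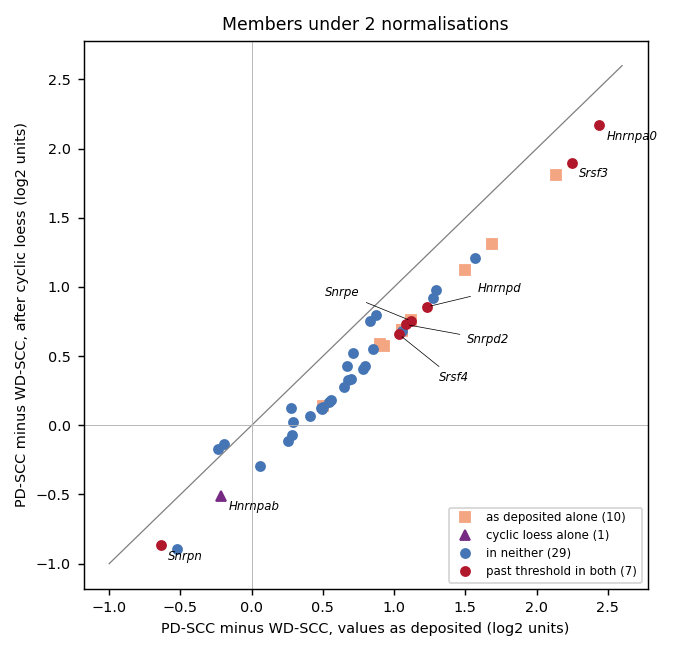
Each point is 1 of the 47 genes, with its PD-SCC minus WD-SCC difference as deposited on the horizontal axis and after cyclic loess on the vertical axis, both in log2 units; the grey diagonal marks equal values. Red points (7) passed the threshold under both, orange squares (10) as deposited alone and the triangle, Hnrnpab, after cyclic loess alone; nearly all points lie below the diagonal.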

How the data were processed

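RNA of sorted tumour cells from 4 WD-SCC and 4 PD-SCC samples was measured on 8 single-colour Affymetrix arrays. The deposited values are log2 levels, 1 per probe set and array, made by the authors with RMA in the affy package, per the submitters' processing notes; no versions are stated there. RMA forces the probe readings of all arrays to 1 distribution, so a shift shared by most genes may not be seen. The probe set values made from them still differed somewhat between arrays. Their 75th percentile ran from 4.85 to 5.05 on WD-SCC arrays and from 4.92 to 5.21 on PD-SCC arrays. The values ran from 2.40 to 13.2, and the number of arrays limits precision. Scanner files were not used here.

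Of 45141 probe sets, 28898 name 1 gene in the platform annotation, and old symbols were replaced through RefSeq by Entrez number (99.1% of genes matched). The brightest probe set on average over the 8 arrays stood for its gene. The stage effect was fitted with limma 3.58.1 in R 4.3.3 (lmFit and eBayes, two-sided test) on stage with lineage as a block, which leaves 4 residual degrees of freedom, and p-values were Benjamini-Hochberg adjusted over 17097 genes at a threshold of 0.05. Differences within lineages used 1 coefficient for each pairing of lineage and stage. A level counted as above the bacterial controls when it exceeded the highest of 15 unspiked bacterial probe sets on that array; a gene above them in 1 stage alone gets a lower bound of its fold. Arrays were paired by lineage, because a lineage is 1 tumour at both stages per the series design. Deviations from the stage means correlated between stages at -0.04 in OT7, 0.02 in OT14 and 0.06 in OT15. Promoters came from RefSeq (GRCm38.p6) for 41 of the 47 genes. Plots used Python 3.11.15 with matplotlib 3.10.9, and the fit was tested on simulated data.

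The genes, the lists and the tests were chosen with earlier results of these data known. Named genes were to be the called ones with the smallest p (up to 8 higher), the called lower ones, the 3 smallest lineage-difference p, a set of well-known factors, 2 of each family by level, and up to 3 genes of each other list with 7 regulators. Any other gene named, such as Hnrnpr, Sf3a3, Snrpa1 or Rbm47, was added with its values in view. Alternatives changed the block, the OT7 pair, single arrays or lineages, the probe set rule, the filter on dim genes, the scaling and the variance prior.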

Additional observations from a re-analysis of the deposited data

Results flagged for a closer look

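In 3 of the 94 groups of 4 arrays formed by gene and stage, 1 array stood apart by Dixon's test of the gap over the range, and chance flags about 1 group in 20. Hnrnpd read 6.85 on the OT15 WD-SCC array, while the other 3 WD-SCC arrays read 7.87 to 8.06. Sf3b2 read 7.38 on the OT14 PD-SCC array, while the other 3 PD-SCC arrays read 7.83 to 7.90. Snrpf read 7.31 on the second OT7 PD-SCC array, while the other 3 read 7.91 to 8.0. The rise of Hnrnpd passed the threshold without the OT15 WD-SCC array, as it did without any other single array (adjusted p at most 0.0326).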

How the results depend on the processing

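As deposited, 16 of the 47 genes rose and 1 fell. Without 1 array, 9 to 11 rose and 0 to 1 fell, and over all genes 548 to 958 rose and 338 to 731 fell, against 1331 and 823. Leaving out either array of OT14 or OT15 removes that lineage from the stage estimate. Without the lineage OT7, 0 of the 47 rose and 0 fell (26 higher at an unadjusted p under 0.05), and 52 and 194 of all genes; without OT14 the counts were 10 and 0, and 772 and 468; without OT15 they were 9 and 0, and 842 and 440. With OT7 pairs averaged they were 1 and 0, and 202 and 199. These fits hold fewer arrays and fewer degrees of freedom. Cyclic loess gave 6 and 2, 799 higher of all genes, and a median of 0.43 for the 47; the cause was not tested. Scaling to the 75th percentile moved the median of all genes from -0.06 to -0.21, and that of the 47 from 0.78 to 0.63. With no replicate block (stage alone, no pairing by lineage) 14 rose and 0 fell. Snrpn was also not past the threshold, so that 0 fell, with lineage as a random block, with a trended and robust prior, and when only genes above the bacterial controls on at least 4 arrays or on all 8 were tested. The last filter, chosen after seeing the data, left 530 lower of the 6561 genes it tested. Averaging probe sets gave 20 higher and turned Hnrnpab to 0.73. It brought Hnrnpc, Hnrnpk, Sf3b2, Snrpb2 and Snrpd3 past the threshold and lost Hnrnpr and Hnrnpul2. Under all 22 alternatives the median of the 47 stayed above 0.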
